A study of Mus musculus with 8 samples.

Results

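The 10 genes described here encode the core of antigen presentation by the major histocompatibility complex (MHC): H2-K1, H2-D1, B2m, Tap1, Psmb8 and Psmb9 for class I, and H2-Aa, H2-Ab1, Cd74 and Ciita for class II. They were taken by symbol from the 55385 genes counted in mRNA-seq of whole fetal mouse lung. All 10 had enough reads to be tested between groups. The lungs came from C57BL/6 fetuses collected at E18.5 and fell into 2 groups of 4, control and tracheal occlusion (TO). According to the study's methods, TO fetuses had the trachea ligated through the uterine wall earlier in gestation together with one carotid artery and one jugular vein, and progesterone was given to prevent loss of the pregnancy. The labels say nothing of how control fetuses were handled, so the effect of the occlusion and that of the ligated vessels and surgery cannot be told apart. They also do not say which fetuses shared a dam, so p-values measure only the spread between these lungs.

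Class I molecules are carried by almost all nucleated cells and show peptides made by the proteasome in the cytosol to CD8+ T cells. A heavy chain such as H2-K1 or H2-D1 pairs with the invariant light chain B2m, and its peptide is pumped into the endoplasmic reticulum by the Tap1 and Tap2 transporter. Psmb8 and Psmb9 are catalytic subunits that replace constitutive ones in the immunoproteasome. Class II molecules are made mainly by dendritic cells, macrophages, B cells and the thymic epithelium, and show peptides from endosomes to CD4+ T cells. H2-Aa and H2-Ab1 encode the alpha and beta chains of the class II molecule H2-A, Cd74 is the invariant chain that occupies the groove until peptide is loaded, and Ciita is the transactivator that class II transcription needs. Interferons raise most of these genes in many cell types, and the interferon-gamma pathway raises class II through Ciita. In the lung, alveolar macrophages, dendritic cells and also alveolar type 2 cells are known to express class II.

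Values are CPM, the read pairs on a gene relative to all read pairs on genes in its library, as the cpm function of edgeR gives them after TMM scaling. TO 1 held 270078 counts on genes, against 22822261 to 35002061 in the other 7 libraries, so that 1 read pair in TO 1 is worth 3.45 CPM. The names of the deposited files end in a 4-digit code shared between control and TO lungs, whose meaning is not stated. Code 3482 belongs to controls 1 and 4 and TO 1 and 4, code 3573 to control 2 and TO 2, and code 3604 to control 3 and TO 3. Lung markers were high in all lungs: the summed level of Nkx2-1, Sftpc, Sftpb, Ager and Epcam ranged from 5790 to 16500 CPM and was lowest in TO 1. TO 1 also held markers of the thymus, given below beside the class II genes they moved with, and the fold changes and counts of the class II genes are given with and without it.

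Of the 10 genes, 7 lie in the MHC on chromosome 17 (GRCm38, GENCODE M21). H2-K1 spans 17:33996017-34000347 on the minus strand. After a gap of 181639 bases come Psmb9 at 17:34181987-34187764 on the minus strand, Tap1 at 17:34187553-34197225 and Psmb8 at 17:34197721-34201454, both on the plus strand. H2-Ab1 lies at 17:34257689-34269419 on the plus strand, H2-Aa at 17:34282744-34287823 on the minus strand, and H2-D1 at 17:35262730-35267499 on the plus strand. The other 3 lie elsewhere, B2m at 2:122147686-122153083 and Ciita at 16:10480059-10528418, both on the plus strand, and Cd74 on a further chromosome. Psmb9 and Tap1 run head to head and share 212 bases, and counts without regard to strand cannot assign reads there. This overlap covers 5.79% of the exonic bases of Psmb9 and 3.87% of those of Tap1, and Gm20496 covers 14.7% of those of Psmb8 on the opposite strand. H2-D1 shared 1.79% of its 150-base windows with H2-Q1 and H2-K1 shared none with any other gene.

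The RefSeq promoter table (GRCm38.p6) held 7 of the 10 genes, all but H2-Ab1, Cd74 and Ciita. The 250 bases before the start site are shown for B2m at chr2:122147437-122147686 on the plus strand, since B2m was the only one of the 10 called in the comparison of codes below, and for H2-K1 at chr17:34000348-34000597 and H2-Aa at chr17:34287824-34288073, both on the minus strand, as a class I heavy chain and a class II chain to set beside it. Capitals mark matches on either strand to AANNGAAA, the core bound by interferon regulatory factors, to GAAANNGAAA, the interferon-stimulated response element, which overlaps the core, to TTCNNNGAA, the interferon-gamma activated site, and to CCAAT, the site of NF-Y.
B2m: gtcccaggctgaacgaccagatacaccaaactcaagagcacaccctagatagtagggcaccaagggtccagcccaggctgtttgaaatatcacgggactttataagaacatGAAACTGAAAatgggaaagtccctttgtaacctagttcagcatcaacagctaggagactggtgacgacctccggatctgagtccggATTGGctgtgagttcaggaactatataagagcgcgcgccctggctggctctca
H2-K1: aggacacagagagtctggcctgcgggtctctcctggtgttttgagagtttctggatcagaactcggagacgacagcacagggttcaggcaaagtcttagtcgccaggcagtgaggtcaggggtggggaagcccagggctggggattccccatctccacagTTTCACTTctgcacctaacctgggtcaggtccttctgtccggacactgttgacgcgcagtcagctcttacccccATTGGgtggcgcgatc
H2-Aa: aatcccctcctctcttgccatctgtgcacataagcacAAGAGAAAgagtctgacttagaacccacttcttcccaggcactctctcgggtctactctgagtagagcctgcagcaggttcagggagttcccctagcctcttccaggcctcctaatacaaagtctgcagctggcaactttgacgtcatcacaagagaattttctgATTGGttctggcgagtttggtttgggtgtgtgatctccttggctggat
The core AANNGAAA stood in 4 of the 7 windows, those of B2m, H2-Aa, H2-D1 and H2-K1, against 21.3% of 32851 windows of the same length in the table. Only the B2m window held GAAANNGAAA, 139 to 130 bases before the start site, a match found in 2.98% of all windows. TTCNNNGAA stood in the Psmb8 window alone (7.02% of all windows), and CCAAT in 6 of the 7 (33.8% of all windows). These matches describe the sequence and were not tested as sites. In GENCODE M21 all 250 bases of the H2-D1, Tap1, Psmb8 and Psmb9 windows lie in exons of annotated genes. In the 3 windows shown, this holds for 1 base of B2m and 0 of H2-K1 and H2-Aa. The H2-K1 and H2-D1 windows shared an identical run of 47 bases just upstream of their core match.

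Per kilobase of exonic sequence, the 10 genes spanned a wide range of levels in the 7 lungs other than TO 1. B2m led with a median of 191 CPM per kb (range 164 to 334), followed by H2-D1 at 44.3 (38.6 to 58.0) and H2-K1 at 29.5 (23.2 to 38.2). With these lengths the ranges of the 3 did not overlap. The length counts every annotated exonic base: 2938 for H2-K1, 2579 for H2-D1, 3798 for H2-Aa and 9535 for Ciita. Their longest coding transcripts have 1619, 2102, 1128 and 6007 bases. Whether H2-K1 and H2-D1 overlap, or H2-Aa and Ciita, thus depends on the length used. Cd74 had a median of 7.71 CPM per kb (5.02 to 12.0) and Tap1 3.15 (2.36 to 5.70), and their ranges overlapped. H2-Ab1 followed at 1.88 (0.607 to 2.72), Psmb8 at 1.29 (0.776 to 2.47) and Psmb9 at 1.27 (0.830 to 1.51), which could not be ordered. H2-Aa at 0.427 (0.274 to 0.880) and Ciita at 0.322 (0.0634 to 0.375) were lowest and overlapped as well. At this age the class I heavy and light chains were thus well above the class II chains in every deep library, while the invariant chain Cd74 stood above H2-Aa and H2-Ab1.

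TO and control lungs were compared first, to ask whether occlusion changed the presentation genes. None of the 10 passed the test of edgeR (adjusted p = 1 for each, quasi-likelihood test over 22545 genes, threshold 0.1), and the share of all genes called was 0%. At an unadjusted p under 0.05 there were 530 genes (2.35%), none of them among the 10, and DESeq2 called 7 of 22486 genes (0.0311%), again none of the 10. The fitted log2 fold change was above 0 for all 10, where 46.8% of all genes tested were above 0. Its median was 0.30 over the 6 class I genes and 0.80 over the 4 class II genes, beside -0.018 over all genes. The class II median fell to 0.20 without TO 1 (3 of 4 above 0) and to 0.11 without control 3 and TO 1 (2 of 4 above 0), and the class I median to 0.18 without TO 3 (4 of 6 above 0). With the replicate number as a block, edgeR called 3 genes (0.0133%), none of the 10. In that edgeR fit 993 of 22545 genes had an unadjusted p under 0.05, among them H2-Aa (0.0383) and H2-Ab1 (0.0323). With that block and without both number-1 lungs, 678 of 22016 genes did. These held 0 of the 4 class II and 1 of the 6 class I genes. In no member did every TO lung lie above every control lung, as it did in 0.71% of all genes, and in none did every TO lung lie below, as in 1.3% of all genes. Since whole lung was sequenced, fewer cells of a type and less RNA per cell cannot be told apart in any of these values.

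H2-K1, a classical class I heavy chain, was at 68.3, 78.7, 90.6 and 68.4 CPM in controls 1 to 4 and at 58.6, 103, 112 and 86.8 CPM in TO 1 to 4. The groups overlapped, with TO 1 the lowest of all lungs and TO 3 the highest. The mean was 90.2 ± 23.5 CPM over the TO lungs and 76.5 ± 10.6 CPM over the controls (SD, n = 4 each), a log2 fold change of 0.30 with a standard error of 0.18. Without TO 1, which had 17 read pairs for this gene, the log2 fold change was 0.40 ± 0.15 (SE), still with an adjusted p of 1 in edgeR. H2-D1, the other classical heavy chain of this strain, was at 102, 126, 113 and 99.7 CPM in controls and at 100, 146, 149 and 114 CPM in TO lungs. The groups overlapped here too, and the highest values were those of TO 2 and TO 3. The log2 fold change of H2-D1 was 0.24 with a standard error of 0.15. In each pair of lungs with the same replicate number other than the first, TO exceeded control, by 0.39, 0.31 and 0.34 on the log2 scale for H2-K1 and by 0.21, 0.41 and 0.20 for H2-D1.

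B2m, the light chain of every class I molecule, was at 150, 164, 203 and 141 CPM in controls and at 152, 148, 288 and 180 CPM in TO lungs. The 2 lungs of code 3604, control 3 and TO 3, were the highest of their groups and of all 8. The log2 fold change between TO and control was 0.24 with a standard error of 0.21, and it was -0.03 without TO 3, so that its sign rested on that lung. Tap1, which pumps peptides into the endoplasmic reticulum, followed the same order with 14.0, 17.2, 21.3 and 12.9 CPM in controls and 13.8, 13.6, 31.2 and 18.51 CPM in TO lungs. Control 3 and TO 3 were again above every other lung. Tap1 gave a log2 fold change of 0.31 with a standard error of 0.28, and -0.05 without TO 3.

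**Figure D1:**
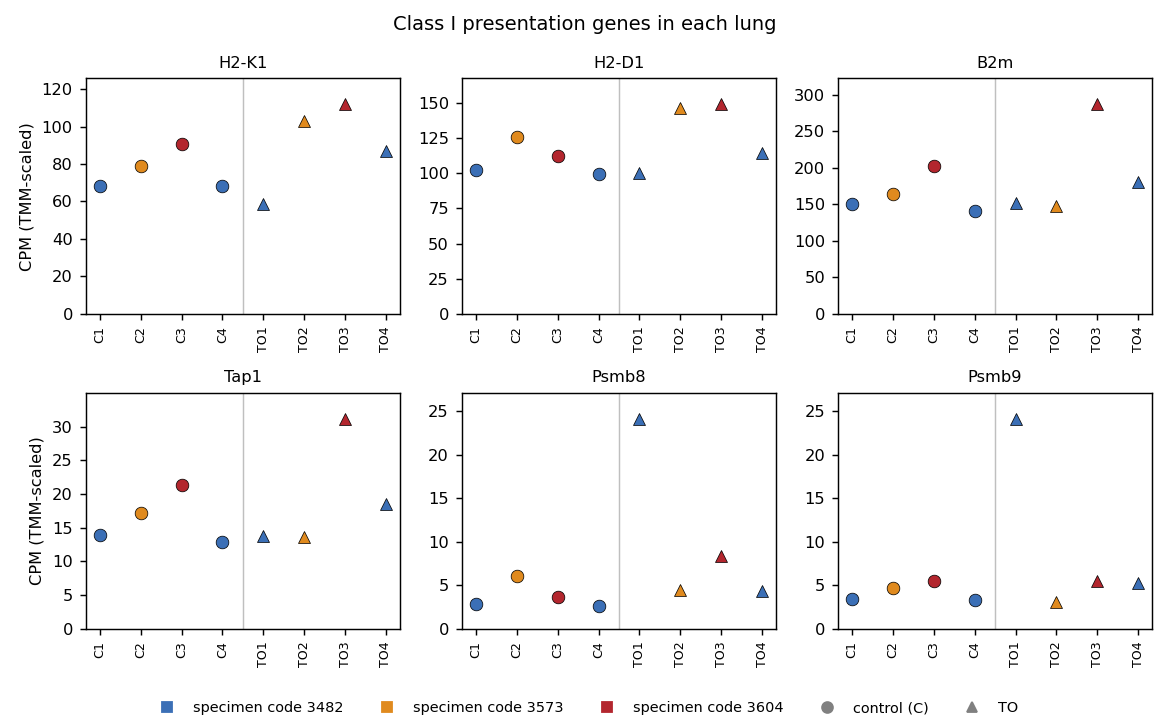
CPM (TMM-scaled, vertical axes from 0) of the 6 class I presentation genes in each lung, controls 1 to 4 (C, circles) left of the line and TO 1 to 4 (triangles) right of it, coloured by specimen code. Control 3 and TO 3 are the highest of all lungs for B2m (203 and 288 CPM) and Tap1 (21.3 and 31.2 CPM), and TO 1 is the highest for Psmb8 and Psmb9 (24.1 CPM each).

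Levels were next compared between the 3 codes at a given treatment, since both lungs of code 3604 were highest in B2m and Tap1. These same values enter the test, so its results for B2m and Tap1 add no independent evidence of a code pattern. The test (edgeR quasi-likelihood F-test of the code terms, adjusted over all genes) called 1240 of 22545 genes (5.5%). Of the 10 members it called 1, B2m, with an adjusted p of 0.0635. The mean of B2m was 245 CPM in the 2 lungs of code 3604, 156 CPM in the 2 of code 3573 and 156 CPM in the 4 of code 3482, whose highest lung reached 180 CPM. This call did not survive every omission: in edgeR the adjusted p for B2m was 0.0278 to 0.36 when single lungs were left out, and it passed 0.1 without control 3 (0.12), control 4 (0.131), TO 3 (0.36) or TO 4 (0.128). Tap1 averaged 26.3 CPM in code 3604, against 15.4 and 14.8 CPM in codes 3573 and 3482, with an unadjusted p of 0.0108 and an adjusted p of 0.141 in edgeR. H2-K1 (adjusted p = 0.225) and H2-D1 (adjusted p = 0.262) did not pass in edgeR either, and both had their lowest mean in code 3482, at 70.5 and 104 CPM. H2-K1 averaged 91.0 CPM in code 3573 and 101 CPM in code 3604, and H2-D1 136 and 131 CPM. At an unadjusted p under 0.05, 4 of the 6 class I genes differed between codes and 0 of the 4 class II genes, beside 17.2% of all genes. Without TO 1, Cd74 (unadjusted p = 0.0233) and H2-Ab1 (unadjusted p = 0.0322) were under that threshold too in edgeR, with adjusted p-values of 0.202 and 0.234. Both lungs of code 3604 lay above every other lung in 2 of the 6 class I genes and in 0 of the 4 class II genes, beside 10.1% of all genes. Among the 7 deep libraries alone they did so in 3 of the 6 class I genes and in 1 of the 4 class II genes, H2-Ab1, beside 11.7% of all genes. Each of the codes 3573 and 3604 has 1 control and 1 TO lung, and what differed between codes (a dam, a day or a sequencing run) is not stated and cannot be told apart.

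Genes that interferons induce moved with the same lungs. The summed level of 22 of them, among them Ifit1, Isg15, Rsad2, Mx1 and Oasl2, was 212, 262, 557 and 237 CPM in controls 1 to 4 and 307, 206, 982 and 350 CPM in TO 1 to 4. Control 3 and TO 3 were the highest by far, and all the other lungs lay at 350 CPM or below. The code test called 18 of the 22 genes (5.5% of all genes), and both lungs of code 3604 were above all other lungs in 16 of the 22 (10.1% of all genes). Ifit1, an antiviral RNA-binding protein, reached 42.8 CPM in TO 3 and 29.3 CPM in control 3 and lay at 0.955 to 6.50 CPM in the other 6 lungs (adjusted p for code = 0.000894, edgeR). The number called was 12 without control 3, 10 without TO 3 and 9 without both control 3 and TO 1. Among 10 GTPases known for their induction by interferon-gamma, the code test called 5, namely Gbp3, Gbp6, Gbp7, Irgm1 and Irgm2, and their summed level was 105 to 178 CPM in controls, 337 CPM in TO 3 and 121 to 186 CPM in the other TO lungs. Without control 3 it called 2 of the 10, and without TO 3 it called 3. Between TO and control, edgeR called 0 of the 22 genes, with 1 at an unadjusted p under 0.05 (Oas2), and 0 of the 10 GTPases, with 3 at an unadjusted p under 0.05. The medians of their log2 fold changes were 0.79 and 0.66, with all 22 and all 10 above 0, but these directions rested on single lungs. Without TO 3 the medians were -0.10 (8 of 22 above 0) and 0.20 (6 of 10 above 0), and without control 3 they were 1.94 and 1.07, with 15 of the 22 and 6 of the 10 at an unadjusted p under 0.05 and 0 called in edgeR. The part of interferon signalling in the levels of B2m and Tap1 was not tested.

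**Figure D2:**
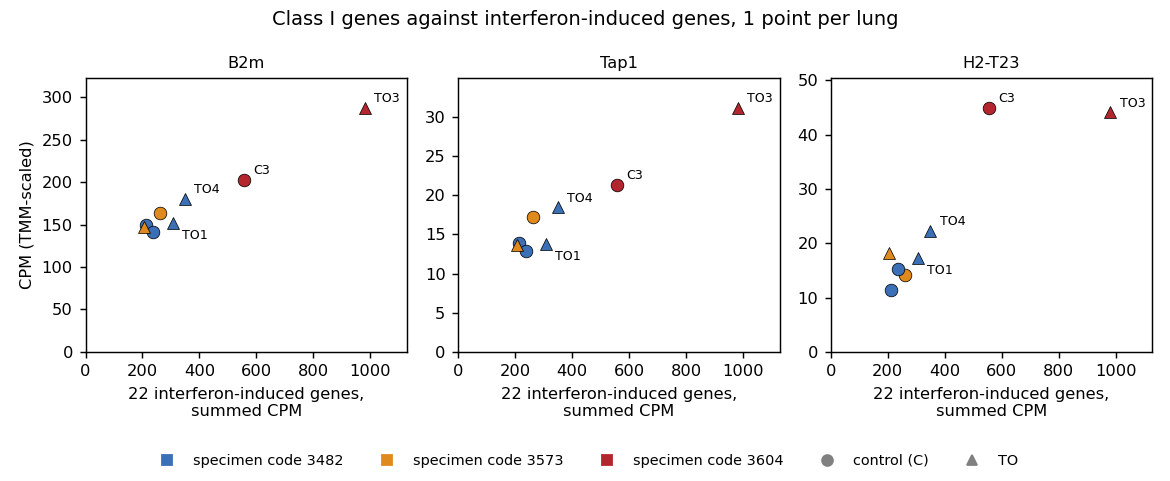
CPM of B2m, of Tap1 and of the non-classical heavy chain gene H2-T23 (vertical axes, from 0) against the summed CPM of 22 interferon-induced genes (horizontal axes), 1 point per lung, circles for control and triangles for TO, coloured by specimen code. Control 3 (557 CPM) and TO 3 (982 CPM) stand to the right and above all other lungs in each plot.

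The regulators and ligands upstream were examined next. A list of 12 MHC gene regulators, which includes Nlrc5, Rfx5, Rfxap, Rfxank, the NF-Y subunits, Irf1, Irf2 and Creb1, gave 0 calls between TO and control, with 6 of the 12 higher and 6 lower in TO. The most abundant were Creb1 (110 to 138 CPM), Irf2 (64.2 to 118 CPM) and Nfyc (41.9 to 64.4 CPM). Nlrc5, the class I counterpart of Ciita, was low, at 0.306, 1.17, 2.52 and 1.01 CPM in controls and 3.45, 0.116, 3.51 and 3.24 CPM in TO lungs. Of the interferon transcripts, only Ifnl2, Ifnl3, Ifng and Ifnb1 were listed, and these were nearly absent. Ifnl2 and Ifnl3 were at 0 read pairs in every library, Ifng did not exceed 0.0649 CPM and Ifnb1 did not exceed 0.0284 CPM. Other interferon genes were not examined. The receptor genes Ifnar1 (96.5 to 149 CPM), Ifngr1 (52.1 to 89.3 CPM) and Ifngr2 (46.6 to 85.1 CPM) were present in every lung, and neither test called any of the 5 interferon receptor genes.

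Among the other class I heavy chains, 11 of 14 genes were tested, with 7 higher and 4 lower in TO and 0 called (median log2 fold change 0.27). The median was -0.04 without TO 3, with 5 of 11 higher, and 0.03 without control 3. The code test called 3. H2-T23, which encodes the non-classical molecule Qa-1 that presents leader peptides to natural killer cells, was at 11.5, 14.2, 45.0 and 15.2 CPM in controls and at 17.2, 18.2, 44.1 and 22.3 CPM in TO lungs (adjusted p for code = 0.00353, edgeR). Control 3 and TO 3 stood clear of all other lungs at nearly the same value, and the log2 fold change between TO and control was 0.33 with a standard error of 0.44. H2-T24 reached 15.7 CPM in TO 3 and 12.7 CPM in control 3, against 3.45 to 8.63 CPM in the other lungs (adjusted p for code = 0.0435, edgeR). H2-Q10 was called as well (adjusted p for code = 0.0186, edgeR), but its level came mostly from TO 4 at 10.8 CPM and control 1 at 2.32 CPM, with 0 to 1.07 CPM elsewhere. H2-T22 (10.3 to 34.0 CPM) and H2-Q4 (17.8 to 27.0 CPM), the other abundant members of the list, were not called between codes. H2-Q and H2-T genes resemble each other closely, and reads could have been lost or shared among them. Without control 3, 1 gene of the list was called between codes.

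Peptide transport and loading held 7 further genes, 4 with a fold change above 0 and 3 below, with 0 called and a median log2 fold change of 0.02 (-0.03 to 0.09 when single lungs were left out). Tap2, the partner of Tap1, was at 7.97, 11.9, 8.94 and 8.51 CPM in controls and at 20.7, 12.7, 11.4 and 7.55 CPM in TO lungs. Unlike Tap1, it was not highest in the lungs of code 3604. Calr, the calreticulin of the loading complex, was called between codes (adjusted p = 0.056, edgeR) with a different order: it was lowest in control 3 (480 CPM) and highest in control 2 (919 CPM), with TO 3 at 556 CPM. Pdia3 (481 to 840 CPM) and Canx (378 to 462 CPM), chaperones of the same complex, were not called. Without control 2, control 3, TO 2 or TO 4, the code test called 0 of the 7.

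Psmb8 and Psmb9, the immunoproteasome members, differed from the other class I genes in TO 1, where both were highest. Over the 7 deep libraries, Psmb8 correlated with H2-K1, H2-D1, B2m and Tap1 at r = 0.74 to 0.85. For Psmb9 these values were 0.2 to 0.86. Psmb8 was at 2.89, 6.01, 3.66 and 2.62 CPM in controls and at 24.1, 4.40, 8.34 and 4.37 CPM in TO lungs. TO 1 and TO 3 were the highest lungs, and the other TO lungs lay within the range of the controls. The log2 fold change was 0.91 with a standard error of 0.49, the largest among the class I members, and 0.58 ± 0.38 (SE) without TO 1. Psmb9 was at 3.37, 4.64, 5.44 and 3.35 CPM in controls and at 24.1, 3.04, 5.53 and 5.28 CPM in TO lungs, so that TO 1 alone stood apart. Its log2 fold change was 0.51 with a standard error of 0.49, and 0.13 ± 0.32 (SE) without TO 1. The TO 1 value of each rests on 7 read pairs, with an exact 95% Poisson interval of 9.71 to 49.8 CPM, whose lower end was still above all other lungs. This interval covers counting error only, since the reads carry no molecular identifiers.

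The level of each subunit was set beside the constitutive subunit it replaces. Psmb8 was at 11.1% to 41.6% of the CPM of Psmb5 in the 7 deep libraries, with the highest share in TO 3, and at 117% in TO 1. Psmb9 was at 3.47% to 8.76% of the CPM of Psmb6 in those 7 libraries, with the highest shares in control 3 (8.76%) and TO 3 (7.90%), and at 19.4% in TO 1. These shares are of CPM without correction for length. Psmb5 (19.5 to 26.9 CPM), Psmb7 (32.5 to 48.1 CPM) and Psmb6 (62.2 to 124 CPM) were not called in either test. Neither were the third inducible subunit Psmb10 (15.3 to 20.7 CPM) and the activator genes Psme1 (80.8 to 115 CPM), Psme2 (30.9 to 53.6 CPM) and Psme3 (70.4 to 92.3 CPM). TO 1, where Psmb8 and Psmb9 were highest, had 20.7 CPM of Psmb10.

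The class II genes were low in 7 lungs and high in 1. H2-Aa, the alpha chain, was at 2.80, 1.04, 1.65 and 1.25 CPM in controls and at 51.7, 1.62, 3.34 and 1.48 CPM in TO lungs. TO 1 exceeded every other lung, and the remaining TO lungs overlapped the controls. The mean was 14.5 ± 24.8 CPM over the TO lungs and 1.68 ± 0.786 CPM over the controls (SD, n = 4 each), with a log2 fold change of 2.04 and a standard error of 1.11, and without TO 1 the log2 fold change was 0.35 ± 0.48 (SE). H2-Ab1, the beta chain, was at 5.08, 1.56, 6.99 and 2.46 CPM in controls and at 48.3, 3.21, 5.65 and 4.83 CPM in TO lungs. Again the TO lungs other than TO 1 lay within the range of the controls, and the log2 fold change fell from 1.03 (SE 0.80) to 0.18 ± 0.49 (SE) without TO 1. Cd74, the invariant chain, was at 20.1, 14.2, 8.43 and 13.0 CPM in controls and at 93.1, 12.5, 9.82 and 15.9 CPM in TO lungs. Its direction turned with that lung, from 0.56 (SE 0.59) with all 8 lungs to -0.12 ± 0.29 (SE) without TO 1 and -0.30 ± 0.24 (SE) without control 3 and TO 1.

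Ciita, the transactivator, was at 3.42, 3.57, 0.605 and 3.07 CPM in controls and at 6.90, 3.07, 3.18 and 3.04 CPM in TO lungs. Of the 8 lungs, 6 lay between 3.04 and 3.57 CPM, while control 3 was low and TO 1 high. The low value of control 3 came from 18 read pairs in a deep library, and the high value of TO 1 from 2 read pairs, with an exact 95% Poisson interval of 0.836 to 24.9 CPM that covers the other lungs except control 3. Its log2 fold change was 0.32 with a standard error of 0.52, 0.22 ± 0.52 (SE) without TO 1, and -0.02 without control 3. Control 3 thus had the lowest Ciita and the lowest Cd74 of all lungs, but the highest H2-Ab1 of the controls. In the code test the class II genes did not pass, with adjusted p-values in edgeR of 0.316 for Cd74, 0.416 for H2-Ab1, 0.532 for H2-Aa and 0.549 for Ciita. Cd74 was nonetheless lower in both lungs of code 3604 than in any other lung, opposite to B2m and Tap1.

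**Figure D3:**
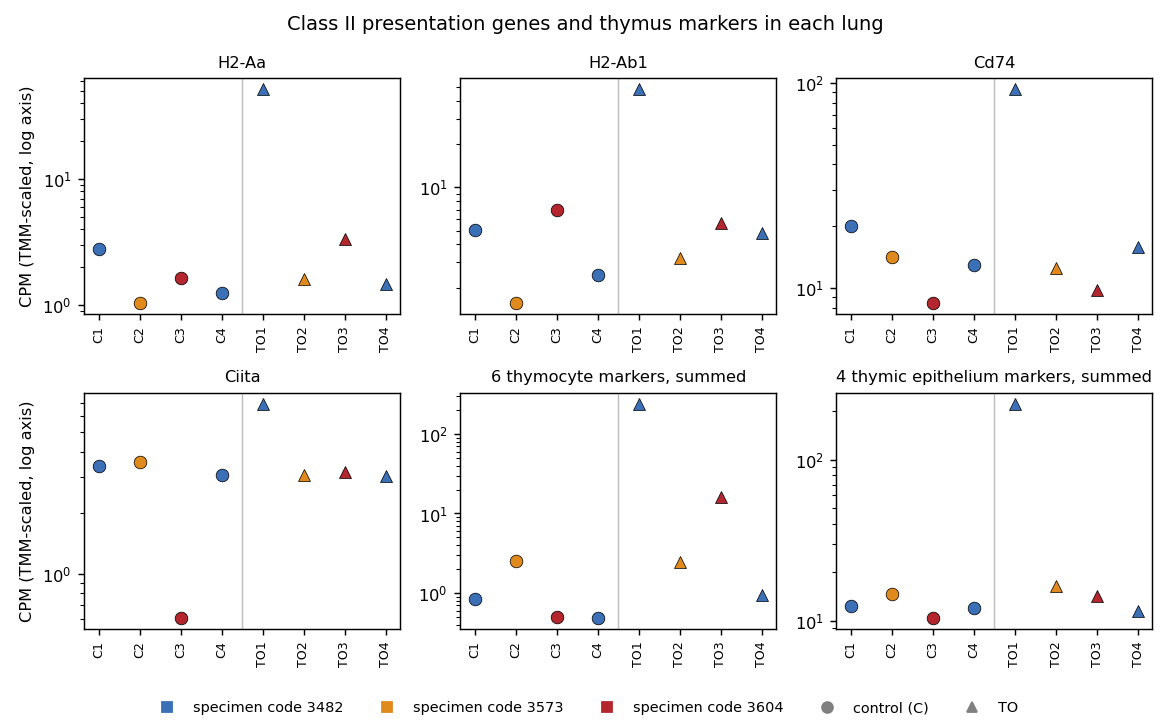
CPM (TMM-scaled, log axes) of the 4 class II presentation genes and the summed CPM of 6 thymocyte and 4 thymic epithelium markers in each lung, controls 1 to 4 (C, circles) left of the line and TO 1 to 4 (triangles) right of it, coloured by specimen code. TO 1 is the highest lung in every plot, and TO 3 is the next highest for the thymocyte markers (16.0 CPM).

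The high class II values of TO 1 rest on few reads but exceed counting error. TO 1 had 15 read pairs on H2-Aa, 14 on H2-Ab1 and 27 on Cd74, and the lower ends of their exact 95% Poisson intervals, 29.0, 26.4 and 61.4 CPM, were above the highest value of the other 7 lungs (3.34, 6.99 and 20.1 CPM). The summed level of the 4 class II genes was 200 CPM in TO 1 and 17.7 to 31.4 CPM in the other lungs. By contrast, H2-K1, H2-D1, B2m and Tap1 in TO 1 had intervals that included values of other lungs. TO 1 was the highest of the 8 lungs in 4 of the 4 class II genes and 2 of the 6 class I genes, as it was in 20.4% of all genes.

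Markers of the thymus were high in the same lung. The summed level of 6 thymocyte markers (Cd3e, Cd4, Cd8a, Rag1, Dntt and Ptcra) was 238 CPM in TO 1, 16.0 CPM in TO 3 and 0.484 to 2.50 CPM in the other 6 lungs. Rag1, the recombinase of developing lymphocytes, had 47 read pairs in TO 1 (162 CPM), while Dntt had 0 there, which allows up to 12.7 CPM by the exact 95% Poisson interval. The summed level of 4 thymic epithelium markers was 221 CPM in TO 1 and 10.4 to 16.4 CPM in the other lungs, and each of the 4 was highest there: Prss16 at 131 CPM, Ccl25 at 51.7 CPM, the thymoproteasome subunit Psmb11 at 31.0 CPM and Foxn1, the master regulator of thymic epithelium, at 6.90 CPM. In the other lungs most of this sum was Ccl25 (9.44 to 13.7 CPM). The mean log2 CPM of the 4 markers was -0.91 to -0.53 in the controls and 0.3, -0.06 and -0.21 in TO 2, 3 and 4. Of the 3 tested, 1 was higher in every TO lung than in every control (0.71% of all genes). DESeq2 called 1 of them (0.0311% of all genes) and edgeR called 0. Ptprc, the common leukocyte antigen, was at 75.8 CPM in TO 1 and 7.79 to 25.5 CPM elsewhere. The part of thymic RNA in the class II, Psmb8 and Psmb9 levels of TO 1 was not tested. TO 3, the lung next highest in thymocyte markers, was at 14.2 CPM in the thymic epithelium markers. Both this sum and its class II sum lay within the range of the other 6 lungs.

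Markers of other cells that carry class II gave a mixed picture in TO 1. Of 9 macrophage and monocyte markers, Csf1r (48.3 CPM), Adgre1 (13.8 CPM) and Cd68 (13.8 CPM) were above every control there. These values came from 14, 4 and 4 read pairs. The exact Poisson intervals, 26.4 to 81.0 CPM for 14 and 3.76 to 35.3 CPM for 4, included every control value. TO 1 was the highest lung in 0 of the 9. Mertk, Cx3cr1, Fcgr1 and Ly6c2 were lowest there, Fcgr1 and Ly6c2 with 0 read pairs, which allow up to 12.7 CPM. Mrc1 and Lyz2 lay within the range of the controls. The summed level of the 9, most of it Lyz2 and Mertk, was 259 CPM against 279 to 502 CPM in the other lungs. The summed level of 8 dendritic cell markers was 27.6 CPM against 45.7 to 59.7 CPM, nearly all of it from Zbtb46 and Clec9a, and the other 6 lay in the other lungs below what 1 read pair is worth in TO 1 (3.45 CPM). The summed level of 8 B cell markers was 58.6 CPM in TO 1 against 30.3 to 42.4 CPM elsewhere, and TO 1 was the highest lung in 4 of the 8, among them Ebf1, also expressed by stromal cells, with 10 read pairs and Igll1 with 3.

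Fold changes of Ptprc and of the macrophage and monocyte markers leaned above 0 with and without TO 1, but none was called in the unblocked edgeR fit. Those of the dendritic cell markers (median log2 fold change 0.11, 3 of 6 above 0) and B cell markers (0.06, 4 of 8 above 0) were mixed. Without TO 1 these medians were 0.16 (4 of 6 above 0) and -0.03 (3 of 8 above 0). Ptprc had a log2 fold change of 1.27 with a standard error of 0.44 and an unadjusted p of 0.0135 in edgeR, and 0.85 without TO 1. Of the 9 macrophage and monocyte markers, 8 were above 0 (median log2 fold change 0.50, and 0.57 without TO 1) and 0 were called. In edgeR 3 had an unadjusted p under 0.05, beside 2.35% of all genes: Csf1r (0.0457), Adgre1 (0.0208) and Cx3cr1 (0.0264). That number was 4 without TO 1, 1 without TO 3 and 0 without control 2 or control 4. The median was 0.33 without control 4 or TO 3. With the replicate block and without control 3 and TO 1, edgeR called 2 of the 9, beside 219 of 21859 genes. The part of the leukocyte markers in the fold changes of the class I and class II genes was not tested. In the other 7 lungs, the class II sum of control 1, the highest at 31.4 CPM, went with a macrophage sum of 300 CPM and a dendritic cell sum of 49.0 CPM, both within the range of the rest.

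The remaining class II genes were mixed. Of 9 listed, 8 were found by symbol and 5 were tested, with 3 higher and 2 lower in TO and 0 called. H2-Eb1, another class II beta chain gene, was at 3.98, 2.76, 2.02 and 1.57 CPM in controls and at 41.4, 2.34, 1.86 and 1.56 CPM in TO lungs. This was the same shape as H2-Aa and H2-Ab1. The alpha chain gene that goes with it, listed as the pseudogene H2-Ea-ps, had 0 read pairs in every library but TO 4, which had 4. H2-DMa (2.65 to 5.41 CPM) and H2-DMb1 (0 to 4.33 CPM), whose products load peptide onto class II, were not high in TO 1, with 1 and 0 read pairs there. Its depth allows up to 19.2 and 12.7 CPM for them. The genes that supply peptides to class II, Ctsl, Lgmn, Ctss, Ifi30 and March1, had fold changes above 0 in TO (median log2 fold change 0.15, and 0.08 to 0.42 when single lungs were left out), with 0 called. Without TO 1, 4 of the 5 were above 0. Ctsl, a protease of cortical thymic epithelium and of many other cells, was at 144, 145, 301 and 175 CPM in controls and at 321, 177, 199 and 162 CPM in TO lungs, highest in TO 1 and control 3. Lgmn, a protease of endosomes, varied little (114 to 154 CPM). Ifi30, a thiol reductase of endosomes that interferon-gamma induces, was called between codes (adjusted p = 0.0734, edgeR), and its highest lungs were control 2 (41.9 CPM) and TO 2 (51.0 CPM), not those of code 3604. Without control 2, 3 or 4 or TO 2 or 4, the code test called 0 of these genes.

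**Figure D4:**
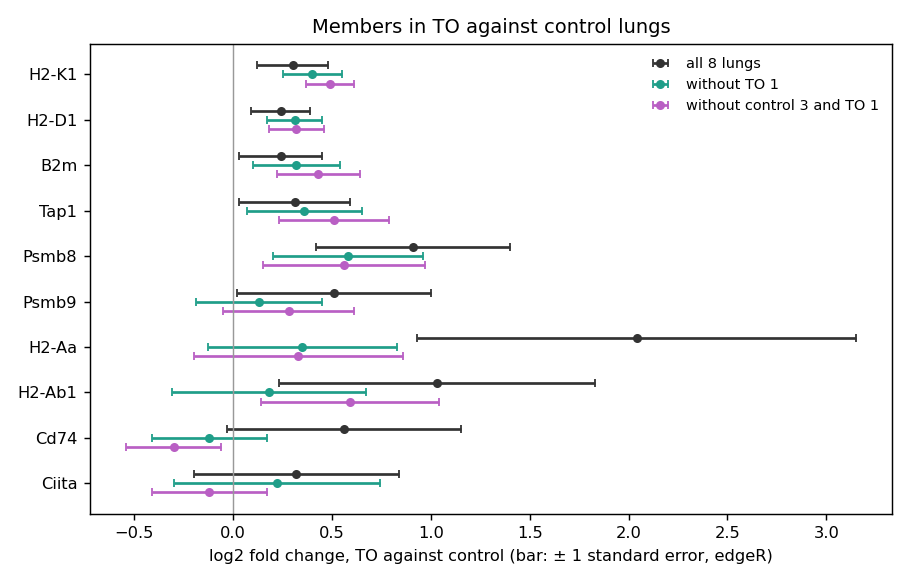
Log2 fold change of each of the 10 genes, TO against control (horizontal axis), with bars of 1 standard error from edgeR, for all 8 lungs, without TO 1, and without control 3 and TO 1. The class I genes stay above 0 in all 3 fits, while H2-Aa falls from 2.04 to 0.35 and Cd74 from 0.56 to -0.12 once TO 1 is left out.

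Genes with the most similar pattern over the 7 deep libraries were named by the Pearson correlation of their log2 CPM with the mean z-score of the members, among 12461 genes with a mean of at least 5 CPM. For the class I genes they were Irf9 (r = 0.987), a transcription factor of the interferon response, Sbsn (r = 0.983), Fcgr1 (r = 0.963), a macrophage Fc receptor, Cd68 (r = 0.959), a macrophage lysosomal protein, and Slc25a28 (r = 0.955). Irf9 was at 33.7, 56.6, 62.0 and 33.3 CPM in controls and at 44.1, 115 and 52.1 CPM in TO 2, 3 and 4. The class II genes did not share one pattern over these libraries: r was 0.70 between H2-Aa and H2-Ab1 and 0.67 between Cd74 and Ciita, but -0.54 between Ciita and H2-Ab1 and -0.29 between Cd74 and H2-Ab1. The genes nearest to their mean were Tmed2 (r = 0.958), Rnf24 (r = 0.958), 0610010F05Rik (r = 0.957), Zfp84 (r = 0.945) and Zfp52 (r = 0.944), none of which is known as an antigen presentation gene. The level of Tmed2, a cargo protein of the secretory pathway, moved only between 132 and 148 CPM in those libraries. These points share libraries, depth and codes, and the best of 12461 genes over 7 points is given as a description.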

How the data were processed

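The authors prepared NexteraXT libraries from whole-lung RNA (4 control and 4 TO fetuses), sequenced them as read pairs and aligned these with STAR to GRCm38. Each deposited file lists, gene by gene, raw counts as the aligner gave them, neither normalized nor filtered. The version of STAR and the annotation are not given in the sources used here. Symbols and coordinates were taken from GENCODE M21, in which 55144 of 55385 gene IDs were found without regard to version. The share of counts on the first strand was 49.87% to 50.11%, so the unstranded column was used.

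A gene was tested if 3 libraries or more held at least 5 of its reads (22545 genes), in R 4.3.3 with edgeR 4.0.16 (TMM, quasi-likelihood test, Benjamini-Hochberg adjustment over all genes, threshold 0.1), in all 8 libraries and with no covariate, as the study's group comparison had none. The same test was run on the 3 file name codes with treatment as a term. DESeq2 1.42.0, limma-voom (limma 3.58.1), other scalings, filters, blocks and omissions were alternatives. Standard errors are those of the fit. Scripts were tested on simulated counts. Figures were made in Python 3.11.15 with matplotlib 3.10.9.

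The members and the lists of other genes were chosen with earlier results of these data known. All 10 members are named, and of the other lists the genes called, the 3 most abundant, and those at 0 in every library. Nlrc5, Tap2, Psmb10, Ctss, Oas2, Isg15, H2-DMa, Ifng, Ifnb1 and the markers given for TO 1 are named beside them, some chosen after their values were seen. H2-Ea and Marchf1 were not matched by symbol, and the symbols H2-Ea-ps and March1 were used. Some listed genes are not reported here.

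Replicate numbers are shared between groups. Deviations from the group mean correlated between lungs of the same number at 0.05, 0.13, 0.16 and 0.07 over the genes tested, and at 0.21, 0.34, 0.49 and 0.34 over the 9335 genes with 5 reads in every library. Lungs of the same number also share a code, so whether the numbers pair the lungs was left undecided, and the fit without a block is given first with the blocked counts beside it.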

Additional observations from a re-analysis of the deposited data

Results flagged for a closer look

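Of 32 groups of 4 values checked for a value far from the others (Dixon's criterion at 95%), 11 had one. Chance meets the criterion in about 1 group in 20, for independent groups of normal values. These groups were not independent, as TO 1 recurs in them and the class II sum repeats its members. The summed lists were also picked with earlier results known. The 11 flagged groups are thus a description, not set against that rate. TO 1 stood apart from the other TO lungs in most of them. These were Psmb9 (24.1 CPM against 3.04 to 5.53 CPM), H2-Aa (51.7 against 1.48 to 3.34 CPM), H2-Ab1 (48.3 against 3.21 to 5.65 CPM), Cd74 (93.1 against 9.82 to 15.9 CPM) and Ciita (6.90 against 3.04 to 3.18 CPM, from 2 read pairs), together with the summed levels of the class II members (200 against 20.4 to 25.3 CPM), of the other class II genes (51.7 against 8.32 to 13.1 CPM), of the thymocyte markers (238 against 0.937 to 16.0 CPM) and of the thymic epithelium markers (221 against 11.5 to 16.4 CPM). Control 3 stood apart from the other controls in Ciita (0.605 CPM against 3.07 to 3.57 CPM) and in the summed level of the interferon-induced genes (557 against 212 to 262 CPM).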

How the results depend on the processing

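Between TO and control, the edgeR count was 0 with all 8 lungs, where 530 genes had an unadjusted p under 0.05, and the DESeq2 count was 7. With the replicate block 3 genes were called, with that block and without both number-1 lungs 3, with the replicate block in the 6 libraries of the study's heat maps (controls 1, 2 and 4, TO 2, 3 and 4) 219, and with the code block without TO 1 the count was 1. The unblocked edgeR count was 0 in every omission of 1 lung. None of the 10 members was called in any of these. The check of pairing turned on the genes used: over all genes tested control 1 correlated more with TO 4 (0.10) than with TO 1 (0.05), and over genes with 5 reads in every library more with TO 1 (0.21) than with TO 4 (0.15).

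Directions turned for B2m (-0.03) and Tap1 (-0.05) without TO 3, and when single lungs were left out the log2 fold change ranged from -0.03 to 0.38 for B2m, -0.05 to 0.50 for Tap1, -0.12 to 0.94 for Cd74 and -0.02 to 0.50 for Ciita. Cd74 turned to -0.30 in the 6 libraries, -0.12 without TO 1, -0.01 with limma-voom and -0.01 with the code block without TO 1. Ciita turned to -0.12 in the 6 libraries, -0.02 without control 3 and -0.11 in the 6 libraries with the replicate block. The cause was not tested. Tap1 and Ciita, with 4 and 2 read pairs in TO 1, were not tested when 5 reads were required in every library. H2-K1, H2-D1, Psmb8, Psmb9, H2-Aa and H2-Ab1 were above 0 in every alternative run.

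The code test called 1240 genes, 347 to 1895 when 1 lung was left out (lowest without control 3, highest without TO 3, and 604 without TO 4), 309 in the 6 libraries and 2876 with no filter on low counts. With no filter, the adjusted p of that edgeR test was under 0.1 for B2m (0.00226), Tap1 (0.0442), Cd74 (0.00013), H2-Aa (0.0465) and H2-Ab1 (0.0111). TO 1's depth limits what can be said of it: 0 read pairs allow up to 12.7 CPM.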
